A study of Mus musculus with 3 samples.

Results

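The genes described here are 39 cell cycle and DNA replication genes measured in the visceral white adipose tissue (VWAT) of mice. They were taken from a list of names and matched by gene symbol to the annotation of an Illumina mouse bead array. The list was chosen with earlier results of these data known. The shares of all genes set beside its counts are therefore a description and not a test. 11 of them act in S phase (Mcm2, Mcm3, Mcm4, Mcm5, Mcm6, Mcm7, Pcna, Rrm1, Rrm2, Tyms and Tk1) and the other 28 were grouped as mitosis genes. Of the 39, 27 had a probe detected on at least 1 array and are among the 10603 genes measured in all. On these arrays the 27 genes were lowest in lean mice, higher in obese mice and highest in obese mice given rapamycin, with 1 exception, Mcm7. Of the 27, 6 were not detected in lean mice.

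Most cells of adult fat tissue do not divide. A cell that enters the cycle first licenses and copies its DNA with the Mcm helicase, the sliding clamp Pcna and the enzymes that make deoxynucleotides, and then uses cyclin-dependent kinase 1, the Aurora and Polo kinases, kinesins and centromere proteins to separate its chromosomes. In obese fat tissue, dividing cells are known among macrophages, adipocyte precursors and other stromal cells. Rapamycin inhibits mTOR, a kinase that couples nutrients to cell growth and proliferation.

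3 groups of C57BL/6JRj mice were compared, all given as 28 weeks old in the sample labels. The lean group (chow) is named a low-fat diet group with vehicle in the labels and a regular chow group in the study's methods. Both obese groups had been fed a high-fat diet with 60 kcal% fat, and received weekly injections for 22 weeks of either the vehicle alone (HFD-Ve) or rapamycin at 2 mg/kg in that vehicle (HFD-Rapa). The methods give a start of the diet at 6 weeks of age and 5 weeks of diet before the first injection, which together with the injections exceeds the labelled age. RNA of 5 mice was pooled per group and each pool was hybridized to 1 array. The study housed males and females, and how each pool was split by sex is not stated. With 1 array per group there are no replicates, so no test or p-value is given, and every difference below compares these 3 arrays.

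On the chow, HFD-Ve and HFD-Rapa arrays, between 37.4% and 39.7% of the 45281 probes were detected. Signals are given on the log2 scale after background correction and quantile normalization, where a difference of 1 is a doubling, and a gene counts as higher or lower from 1.5-fold on. Of all 10603 genes, 15.1% were higher and 11.7% lower on the HFD-Ve array than on the chow array, 8.55% were higher and 7.56% lower on HFD-Rapa than on HFD-Ve, and 20.5% were higher and 19.5% lower on HFD-Rapa than on chow. With the arrays set to equal medians in place of quantile normalization, the median difference of all genes between HFD-Ve and chow moved from -0.05 to 0.15, and the count of higher and lower genes from 1598 and 1241 to 2306 and 697. Between HFD-Rapa and HFD-Ve the same scaling moved the counts from 907 and 802 to 635 and 1130.

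The promoters of the S phase and the mitosis genes differed in their matches to known cell cycle elements. Promoter sequences, from 250 bases before to 30 bases after the gene start, were taken from RefSeq (GRCm38.p6), which had an entry for 34 of the 39 genes. Searched on both strands were the cell cycle genes homology region or CHR (TTTGAA or TTCGAA), an element of genes expressed late in the cycle that MuvB complexes bind, the CCAAT box (CCAAT), bound by NF-Y, and E2F sites (written TTCCCGC, with the variants TTGGCGC, further TTGCCGC, and last TTCGCGC), found in many S phase genes. A CHR match was present in 16 of 24 mitosis promoters (66.7%) and in 2 of 10 S phase promoters (20%), against 18.6% of all 27025 promoters in the table. An E2F match was present in 6 of 10 S phase promoters (60%) and 4 of 24 mitosis promoters (16.7%), against 8.99% of all promoters. A CCAAT box was found in 8 of 10 S phase promoters (80%) and in 22 of 24 mitosis promoters (91.7%), against 36.6% of all. Such a match is only a run of letters and was not shown to be bound by any factor in this tissue.

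The sequences below are those of the 2 S phase genes and 3 mitosis genes that differed most between the 2 obese arrays by their brightest probes, together with Mcm6, which had the most E2F matches, and Cdk1, the only measured mitosis gene with one. Mcm6 and Cdk1 were chosen after the matches were seen. Each runs from 5′ to 3′ on the strand of its gene, and capitals mark every match of the 3 elements on either strand. A match can share bases with another.
Tk1: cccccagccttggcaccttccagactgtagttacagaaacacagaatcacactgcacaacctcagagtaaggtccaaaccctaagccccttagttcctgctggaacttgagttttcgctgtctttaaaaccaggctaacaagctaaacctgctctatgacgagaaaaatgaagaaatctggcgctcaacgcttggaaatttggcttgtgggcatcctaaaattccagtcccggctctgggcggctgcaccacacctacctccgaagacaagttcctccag
Pcna: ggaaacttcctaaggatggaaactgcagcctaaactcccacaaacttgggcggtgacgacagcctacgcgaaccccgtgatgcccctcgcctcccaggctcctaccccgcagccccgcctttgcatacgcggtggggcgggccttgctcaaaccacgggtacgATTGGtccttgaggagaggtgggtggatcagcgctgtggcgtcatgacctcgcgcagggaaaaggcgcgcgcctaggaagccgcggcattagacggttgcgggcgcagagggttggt
Mcm6: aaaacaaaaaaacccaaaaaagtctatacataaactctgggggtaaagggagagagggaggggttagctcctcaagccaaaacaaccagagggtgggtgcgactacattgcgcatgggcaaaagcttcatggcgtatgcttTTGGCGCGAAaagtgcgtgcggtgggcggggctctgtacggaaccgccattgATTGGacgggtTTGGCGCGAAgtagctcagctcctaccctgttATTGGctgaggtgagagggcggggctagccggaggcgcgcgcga
Cdca8: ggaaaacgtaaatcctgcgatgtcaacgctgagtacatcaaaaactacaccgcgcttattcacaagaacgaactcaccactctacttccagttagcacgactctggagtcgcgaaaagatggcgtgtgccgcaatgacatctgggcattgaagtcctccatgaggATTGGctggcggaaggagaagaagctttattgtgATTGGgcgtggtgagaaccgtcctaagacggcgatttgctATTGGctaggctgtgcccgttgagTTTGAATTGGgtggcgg
Plk1: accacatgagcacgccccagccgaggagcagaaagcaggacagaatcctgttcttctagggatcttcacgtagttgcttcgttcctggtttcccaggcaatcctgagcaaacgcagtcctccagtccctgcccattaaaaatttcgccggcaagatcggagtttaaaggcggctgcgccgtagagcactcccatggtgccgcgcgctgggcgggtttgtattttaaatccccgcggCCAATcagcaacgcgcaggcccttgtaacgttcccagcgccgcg
Prc1: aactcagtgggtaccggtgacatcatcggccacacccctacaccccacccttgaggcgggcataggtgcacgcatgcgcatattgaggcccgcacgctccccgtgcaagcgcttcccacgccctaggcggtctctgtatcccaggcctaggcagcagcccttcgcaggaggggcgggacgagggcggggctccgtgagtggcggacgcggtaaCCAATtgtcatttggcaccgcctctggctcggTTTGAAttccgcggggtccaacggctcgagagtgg
Cdk1: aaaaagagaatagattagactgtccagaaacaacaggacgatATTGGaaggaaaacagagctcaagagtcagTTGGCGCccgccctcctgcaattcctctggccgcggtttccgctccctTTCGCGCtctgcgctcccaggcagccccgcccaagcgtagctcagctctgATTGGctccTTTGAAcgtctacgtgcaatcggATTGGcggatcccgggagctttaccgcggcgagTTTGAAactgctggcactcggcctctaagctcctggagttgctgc
Tk1 (chr11:117825985-117826264, minus strand) had no match in this window, which says only that these letters are not there. Pcna (chr2:132253151-132253430, minus strand) had 1 CCAAT box. Mcm6 (chr1:128359676-128359955, minus strand) had 2 CCAAT boxes and 4 E2F matches, which overlap one another at 2 places. Cdca8 (chr4:124936888-124937167, minus strand) had 4 CCAAT boxes and 1 CHR, which shares a base with the last of them. Plk1 (chr7:122159185-122159464, plus strand) had 1 CCAAT box and no CHR match. Prc1 (chr7:80294201-80294480, plus strand) had 1 CCAAT box followed by 1 CHR close to the gene start. Cdk1 (chr10:69352883-69353162, minus strand) held all 3 elements, with 2 CHR, 3 CCAAT and 2 E2F matches.

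Most measured mitosis genes with a CHR match had one close to the gene start. Of the 16 measured mitosis genes, 14 had a promoter entry and 9 of these had a CHR match, and in 8 (57.1%) a match lay within 30 bases of the start. This was so for Top2a, Cdk1, Cdc20, Cenpa, Kif11, Kif22, Cdca8 and Prc1, while the CHR match of Bub1b began 188 bases before the start. Top2a, Cdk1 and Kif22 also had CHR matches farther upstream, beginning at positions from -215 to -71. No S phase promoter had a CHR match within 30 bases of the start, and 3.43% of all promoters did. This distance was chosen after the matches were seen.

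**Figure D1:**
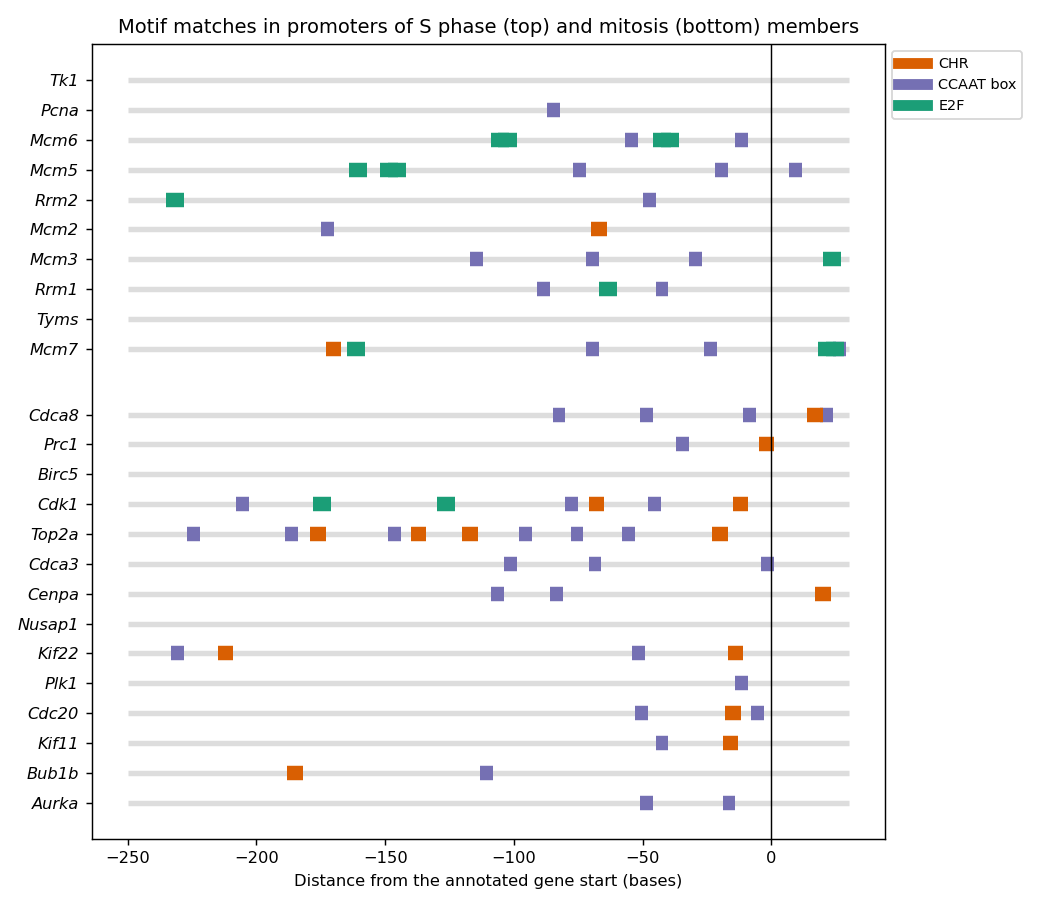
Matches of 3 sequence elements in the promoters of the 24 measured genes with a RefSeq entry, placed by distance from the annotated gene start in bases, with S phase genes above and mitosis genes below and each colored block 1 match. In 8 of 14 mitosis genes a CHR match lies within 30 bases of the start, and some CHR matches lie farther upstream. E2F matches fall mostly in S phase genes (6 of 10, against 1 of 14 measured mitosis genes).

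Obesity was accompanied by higher signals of S phase genes in VWAT, and rapamycin by signals higher still. Of the 11 S phase genes, all measured, 9 were at least 1.5-fold higher on the HFD-Ve array than on the chow array and none was lower, against 15.1% and 11.7% of all genes. On the HFD-Rapa array 6 were higher than on HFD-Ve and none lower, against 8.55% and 7.56% of all genes. Compared with chow, 10 were higher on HFD-Rapa and none lower, against 20.5% and 19.5% of all genes. With Rrm2, which was not detected on chow, at its lower bound, 8 of 11 passed 1.5-fold for HFD-Ve against chow and the median was 0.95. The measured median differences were 1.05, 0.67 and 1.62 on the log2 scale in the same order of comparisons, whereas those of all genes were -0.05, 0.02 and -0.04.

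The Mcm2 to Mcm7 proteins form the ring of the replicative DNA helicase, and their genes did not differ to the same degree. Mcm6 had a log2 signal of 7.91 on chow, 9.61 on HFD-Ve and 10.40 on HFD-Rapa, which is 3.25-fold and then a further 1.73-fold higher. Mcm5 had 7.71, 9.25 and 10.03 on the same arrays, or 2.90-fold and 1.72-fold. By the brightest probe of each gene, these were the largest differences among the 6 helicase genes at both steps. Mcm2 had 6.64, 7.59 and 8.26 (1.94-fold and 1.59-fold), and Mcm3 had 6.03, 7.08 and 7.58 (2.07-fold and 1.42-fold). Both were therefore near doubled on HFD-Ve, but Mcm3 missed 1.5-fold between HFD-Rapa and HFD-Ve. Mcm4 had 9.59, 9.95 and 10.52, and Mcm7 had 7.60, 7.55 and 7.86. Mcm4 was 1.49-fold higher on HFD-Rapa than on HFD-Ve and 1.28-fold higher on HFD-Ve than on chow, so that here the step with rapamycin was larger than the step with diet. Mcm7 differed by -0.05 between HFD-Ve and chow, a sign that turned with the arrays set to equal medians (0.19) and with the mean of its probes (0.14). A dimmer second probe of Mcm7 gave 5.10 on chow, where it was not detected, then 5.43 and 6.46.

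Pcna, the sliding clamp that holds DNA polymerases on the template, and the enzymes of deoxynucleotide supply were higher on both obese arrays. Tk1, which phosphorylates thymidine, had log2 signals of 5.49 on chow, 8.30 on HFD-Ve and 9.20 on HFD-Rapa. It was 2.81 higher on the log2 scale on HFD-Ve than on chow and 13.1-fold higher on HFD-Rapa than on chow, the largest differences of any S phase gene by the brightest probes. The chow signal of this probe had a detection p of 0.0096, just inside the limit of 0.01 for detection. The second probe of Tk1 was not detected on chow and gave smaller differences. It was 2.27-fold higher on HFD-Ve and 3.29-fold higher on HFD-Rapa than on chow, and differed by 0.53 between the obese arrays. Pcna had 5.94, 7.83 and 8.64, or 3.70-fold and then 1.75-fold. Rrm1, the large subunit of ribonucleotide reductase, had 7.88, 8.68 and 9.26 (1.74-fold, then 0.58 on the log2 scale), so that its second step lay just under 1.5-fold. Its small subunit Rrm2 was not detected on chow and had 5.82 on HFD-Ve and 6.63 on HFD-Rapa. It was at least 1.27-fold higher on HFD-Ve than on chow and 1.75-fold higher on HFD-Rapa than on HFD-Ve. "At least" here compares the brighter signal with the faintest signal still detected on the other array, or with the gene's own signal there where that is higher. Tyms, which makes thymidylate, had the smallest differences of these enzymes, at 7.59, 8.28 and 8.73 (1.62-fold and 1.36-fold).

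Genes of mitosis were higher on the HFD-Ve array than on the chow array without exception among the 16 that could be measured, and 13 of them were higher again by 1.5-fold on HFD-Rapa. None was lower in either comparison, and all 16 were higher on HFD-Rapa than on chow. Of all genes, 15.1% were higher on HFD-Ve than on chow, 8.55% on HFD-Rapa than on HFD-Ve and 20.5% on HFD-Rapa than on chow. The shares of all genes that were lower were 11.7%, 7.56% and 19.5%. The median difference was 1.68 between HFD-Ve and chow, 0.77 between HFD-Rapa and HFD-Ve, and 2.41 between HFD-Rapa and chow. For all genes these medians were -0.05, 0.02 and -0.04. 5 of the 16 were not detected on chow (Birc5, Aurkb, Kif11, Cdca8 and Tpx2) and all 16 were detected on both obese arrays. With those genes at their lower bounds, 15 of 16 passed 1.5-fold for HFD-Ve against chow, and the median was 1.63. As every gene had to be detected on at least 1 array to be measured, genes dark on all 3 arrays have no part in these counts.

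**Figure D2:**
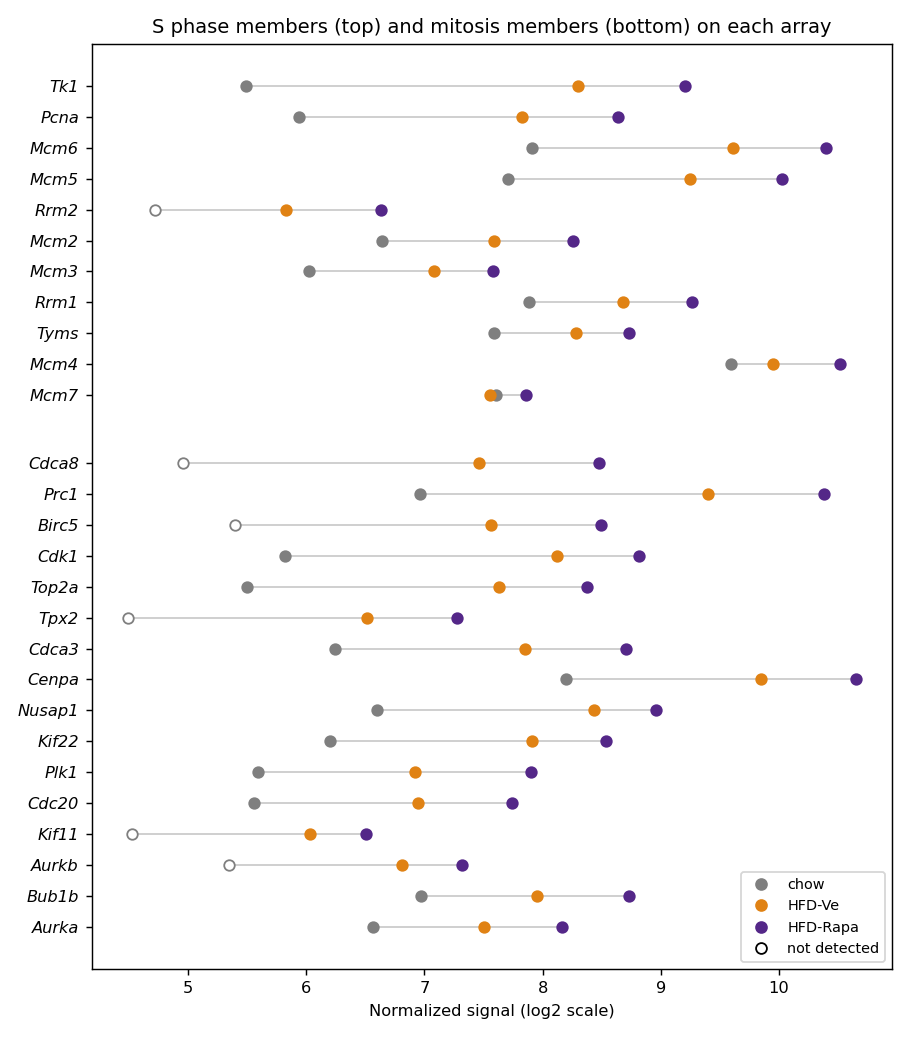
Normalized signal on the log2 scale of the 27 measured genes on the chow, HFD-Ve and HFD-Rapa arrays, 1 array per group, with S phase genes above and mitosis genes below. Open circles mark the 6 genes not detected on chow, and in 26 of 27 genes the signals run in the order chow, HFD-Ve, HFD-Rapa, Mcm7 being the exception.

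The mitotic kinases measured among the 39 genes were higher in obese mice, and a further one, Bub1, was not detected on any array. Cdk1, the kinase that drives entry into mitosis, had log2 signals of 5.82 on chow, 8.12 on HFD-Ve and 8.82 on HFD-Rapa, a 4.91-fold and then a 1.62-fold difference. Plk1, the Polo kinase of spindle assembly and mitotic exit, had 5.59, 6.92 and 7.90 (2.50-fold and 1.98-fold). Plk1 thus showed one of the larger differences between HFD-Rapa and HFD-Ve, and a more modest one with diet than Cdk1. Aurka, which acts at the spindle poles, had 6.56, 7.51 and 8.16 (1.92-fold and 1.58-fold), the smallest difference with diet among the 11 mitosis genes detected on all arrays. Bub1b, a kinase-like protein of the spindle checkpoint, had 6.97, 7.95 and 8.73 (1.96-fold and 1.72-fold). Cdc20, which the checkpoint holds back from activating the anaphase-promoting complex, had 5.56, 6.95 and 7.74 (2.61-fold and 1.74-fold). Both checkpoint genes were therefore higher at each step.

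The chromosomal passenger complex, which corrects attachments at the centromere and later directs cytokinesis, is represented by Aurkb, Birc5 and Cdca8. None of the 3 was detected on the chow array. By its brightest probe, Cdca8 had 7.46 on HFD-Ve and 8.48 on HFD-Rapa, a 2.02-fold difference. This probe was at least 3.95-fold higher on HFD-Ve than on chow. A second, dimmer probe of Cdca8, also not detected on chow, gave 5.95 and 6.35 (1.32-fold). On HFD-Ve it was 1.55-fold above its chow signal of 5.33, so that the probes of Cdca8 disagree in size at both steps. Birc5 had 7.56 and 8.50 (1.91-fold) and was at least 4.23-fold higher on HFD-Ve than on chow. Aurkb had 6.81 and 7.32 (1.43-fold) and was at least 2.51-fold higher on HFD-Ve than on chow. All 3 were higher on HFD-Rapa than on HFD-Ve, Aurkb by less than 1.5-fold. Incenp, the scaffold of this complex and not among the 39 genes, was 1.18 higher on the log2 scale on HFD-Ve than on chow and 0.67 higher on HFD-Rapa than on HFD-Ve.

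Genes for spindle proteins and chromosome structure showed the same order. Prc1, which bundles microtubules at the spindle midzone, had 6.96 on chow, 9.40 on HFD-Ve and 10.38 on HFD-Rapa, or 5.41-fold and 1.97-fold, and was 10.7-fold higher on HFD-Rapa than on chow. Top2a, the topoisomerase that untangles sister chromatids, had 5.50, 7.63 and 8.38 (4.38-fold and 1.68-fold). Cenpa, the histone H3 variant that marks centromeres, had 8.20, 9.85 and 10.65 (3.14-fold and 1.74-fold). In all of them the step with diet exceeded the step with rapamycin. Cdca3, a factor for entry into mitosis, had 6.25, 7.85 and 8.71 (3.04-fold and 1.81-fold). Nusap1, a microtubule-binding protein of the spindle, had 6.60, 8.43 and 8.96 (3.56-fold and 1.44-fold), and Kif22, a kinesin that binds chromosomes, had 6.20, 7.91 and 8.54 (3.28-fold and 1.54-fold). Nusap1 was among the 3 mitosis genes under 1.5-fold between HFD-Rapa and HFD-Ve, with Aurkb and Kif11. Kif11, the kinesin that pushes spindle poles apart, and Tpx2, an activator of Aurka, were not detected on chow. Kif11 had 6.03 on HFD-Ve and 6.51 on HFD-Rapa (1.39-fold) and was at least 1.46-fold higher on HFD-Ve than on chow. Tpx2 had 6.52 and 7.27 (1.69-fold) and was at least 2.05-fold higher on HFD-Ve than on chow.

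The other 12 mitosis genes gave no level. Mki67 and Ccnb1 had no probe named in the annotation used here. For 10 genes, none of 14 probes was detected on any array. These are the cyclins Ccna2 and Ccnb2, Bub1, Cenpe, Kif20a, Ube2c, Cks2, Hmmr, Ncapg and Racgap1. Their uncorrected signals lay between 73.7 and 104.9 and the lowest detection p was 0.0577, for Ccna2. The probes of measured genes also included dark ones, 21 of 62, spread over 13 genes, so a probe without signal does not show that its gene is silent. For Cdk1 only 1 of 3 probes was detected, and for Tk1 a dimmer second probe gave 5.85 on HFD-Ve and 6.39 on HFD-Rapa. 11 of the 27 genes had several detected probes, which gave the same sign within the gene in 11 of 11 between the obese arrays and in 10 of 11 between HFD-Ve and chow.

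The differences with diet were larger in the mitosis genes than in the S phase genes by their medians, while the differences with rapamycin were close. For HFD-Ve against chow the mitosis median exceeded the S phase median by 0.63 on the log2 scale, less than the SD of 0.79 among the 11 S phase genes and more than the SD of 0.48 among the 16 mitosis genes. 14 of the 16 mitosis genes lay above the S phase median, and 3 of the 11 S phase genes, Tk1, Pcna and Mcm6, lay above the mitosis median. For HFD-Rapa against HFD-Ve the medians differed by 0.10, with SDs of 0.18 and 0.17. By the brightest probes, no mitosis gene exceeded Tk1 with diet, whereas 4 mitosis genes (Cdca8, Plk1, Prc1 and Birc5) exceeded every S phase gene for HFD-Rapa against HFD-Ve. Between the obese arrays, the second probe of Cdca8 (0.40) lay below the S phase median, and that of Mcm7 (1.03) above every mitosis gene. With diet, the second probe of Tk1 gave 1.19 and the other detected probes of Mcm6 gave 1.18 and 1.26. These values lay below the mitosis median. The second probes of the mitosis genes Cdca8 (0.63) and Bub1b (0.90), neither detected on chow, lay below the S phase median with diet. With the mean of the kept probes of each gene, the medians with diet were 1.05 for S phase and 1.61 for mitosis genes. Among the 10 S phase and 11 mitosis genes detected on all 3 arrays, the gap between the medians was 0.65 with diet and 0.16 between the obese arrays. With no detection filter, which adds the 10 dark mitosis genes, the gap between the medians was 0.30 with diet and turned to -0.09 between the obese arrays. These are spreads among genes and not errors of a group mean, and the gap was not tested.

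Across both steps, 26 of the 27 genes ran in the order chow, HFD-Ve, HFD-Rapa, as did 28.5% of all genes. 6 of the 27 were not detected on chow and passed the detection filter only through the obese arrays. Among genes detected on all 3 arrays, 9 of 10 S phase and 11 of 11 mitosis genes ran in this order. The step from chow to HFD-Ve was larger than that from HFD-Ve to HFD-Rapa in 25 of 27, with Mcm4 and Mcm7 as exceptions. The 2 steps share the HFD-Ve array. All 27 genes had a higher signal on HFD-Rapa than on HFD-Ve under each of the scalings and background corrections tried. The size of the difference depended on background correction. In the authors' processed values 4 S phase and 7 mitosis genes reached 1.5-fold for HFD-Rapa against HFD-Ve, where 4.27% of all genes did.

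**Figure D3:**
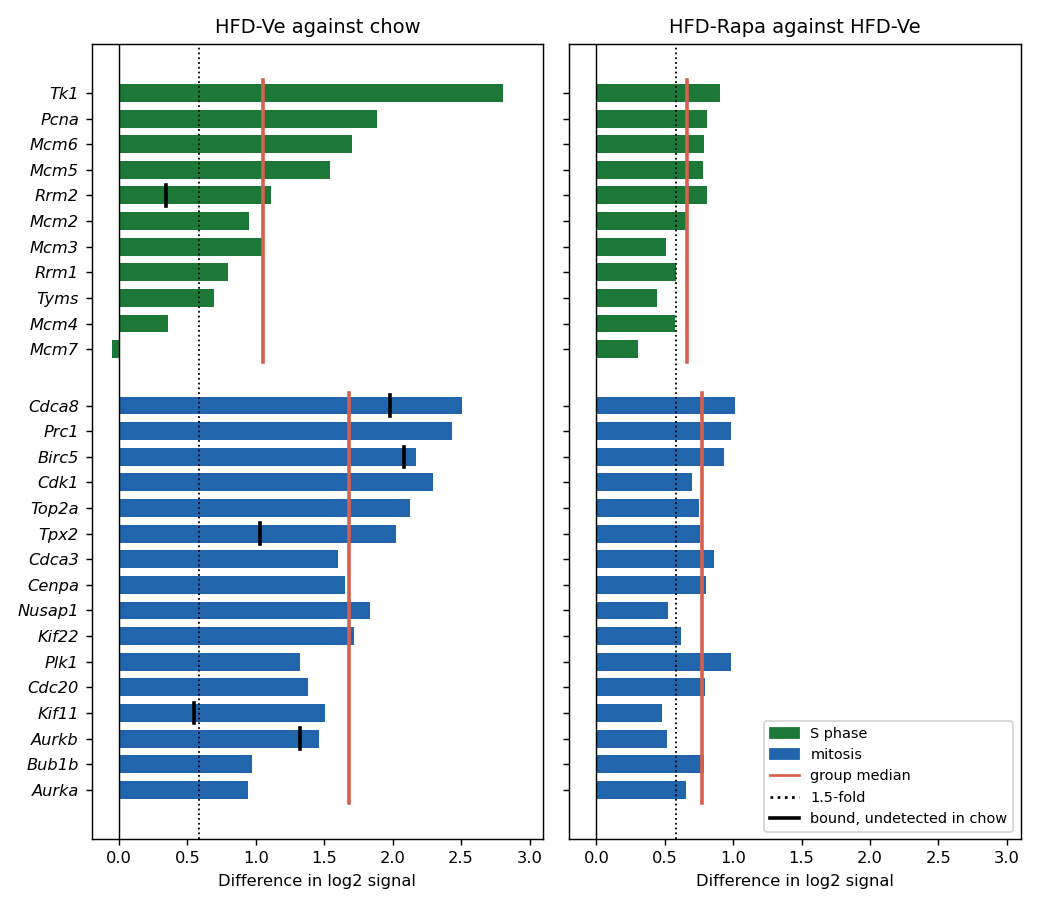
Difference in log2 signal for HFD-Ve against chow (left) and HFD-Rapa against HFD-Ve (right) of the 27 measured genes, with S phase genes in green and mitosis genes in blue. Red lines are the group medians (1.05 and 1.68 on the left, 0.67 and 0.77 on the right), the dotted line is 1.5-fold and short black lines are lower bounds of genes not detected on chow.

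Of 56 further mitosis genes 40 were measured, and 27 were higher and none lower on HFD-Ve than on chow, against 15.1% and 11.7% of all genes. On HFD-Rapa, 18 were higher and none lower than on HFD-Ve, against 8.55% and 7.56% of all genes. With undetected genes at their lower bounds, the counts of higher genes were 13 and 16, as only 12 of the 40 were detected on all arrays. Ckap2l, Dlgap5 and Troap, which are among the 18, were detected on HFD-Rapa alone. Pbk, a mitotic kinase, had 7.54 on HFD-Ve and 8.71 on HFD-Rapa (2.25-fold) and was at least 4.15-fold higher on HFD-Ve than on chow. Kif2c, a kinesin that takes apart microtubules at centromeres, had 6.11 and 7.23 (2.18-fold). Kif15, a spindle kinesin, had 5.94 and 6.94, and Ndc80, which joins centromeres to microtubules, had 6.42 and 7.34. None of these 4 was detected on chow.

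Of 46 further replication genes 36 were measured, and 10 (27.8%) were higher and 1 lower on HFD-Ve than on chow, where 15.1% of all genes were higher. On HFD-Rapa 8 (22.2%) were higher and none lower than on HFD-Ve, where 8.55% of all genes were higher. Most of the list thus stayed within 1.5-fold at each step. Their median differences were 0.26 and 0.31, against 1.05 and 0.67 for the 11 S phase genes. Uhrf1, which recruits the maintenance DNA methyltransferase, had 6.85 on chow, 8.81 on HFD-Ve and 9.71 on HFD-Rapa. Mcm10, a helicase cofactor, had 5.54, 7.06 and 7.88, and Chaf1b, a subunit of the chromatin assembly factor at the fork, had 5.80, 6.85 and 7.69. These genes and Lig1, the ligase that joins Okazaki fragments (7.07, 7.95 and 8.73), differed most between the obese arrays in the list. The 1 lower gene was Pold2, a subunit of DNA polymerase delta, which differed by -0.67 on the log2 scale between HFD-Ve and chow.

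Lists of regulators held few genes past 1.5-fold. Of 15 measured E2F, Rb and MuvB factors, 3 (20%) were higher and none lower on HFD-Ve than on chow. The same counts held for HFD-Rapa against HFD-Ve. Of all genes 15.1% and 8.55% were higher, so that the first share is near that of all genes. With undetected genes at their lower bounds the first count was 2 and the second stayed at 3. E2f1, an activator of S phase genes, had 7.96 on chow, 8.90 on HFD-Ve and 9.58 on HFD-Rapa. Foxm1, an activator of mitosis genes, had 5.55, 5.90 and 6.49, and Mybl2, its partner with MuvB, had 5.76 and 6.38 on the obese arrays and was not detected on chow. Both reached 1.5-fold between HFD-Rapa and HFD-Ve, Foxm1 only just. Of 10 measured G1 cyclins and kinases, 3 were higher and 1 lower on HFD-Ve than on chow, against 15.1% and 11.7% of all genes. At the lower bounds of undetected genes the count of higher genes was 1. On HFD-Rapa 1 of the 10 was higher than on HFD-Ve, a share near the 8.55% of all genes. This was Ccnd1, a D-type cyclin, with 9.44, 10.63 and 11.44. Ccnd2, another D-type cyclin, ran differently, with 11.65, 10.96 and 11.42.

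Of 15 measured inhibitors of cyclin-dependent kinases and p53 targets, none was higher and 2 were lower on HFD-Rapa than on HFD-Ve, against 8.55% and 7.56% of all genes. Cdkn2c, an inhibitor of the D-cyclin kinases, ran opposite to the cycle genes, with 12.17 on chow, 11.46 on HFD-Ve and 10.64 on HFD-Rapa. Sesn2, a stress-induced p53 target, was the other lower gene, with 6.08, 6.15 and 5.46. Cdkn1a, which encodes p21, was 1.60 higher on the log2 scale on HFD-Ve than on chow and differed by 0.04 between HFD-Rapa and HFD-Ve. Of 10 measured DNA damage checkpoint genes, 4 were higher and none lower on HFD-Ve than on chow, against 15.1% and 11.7% of all genes. Between the obese arrays, 2 were higher on HFD-Rapa, against 8.55% of all genes. With genes not detected on chow or HFD-Ve at their lower bounds the counts of higher genes were 3 and 1, the second a share near that of all genes. Clspn, a mediator of the replication checkpoint, had 6.44 on HFD-Ve and 7.13 on HFD-Rapa and was not detected on chow.

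**Figure D4:**
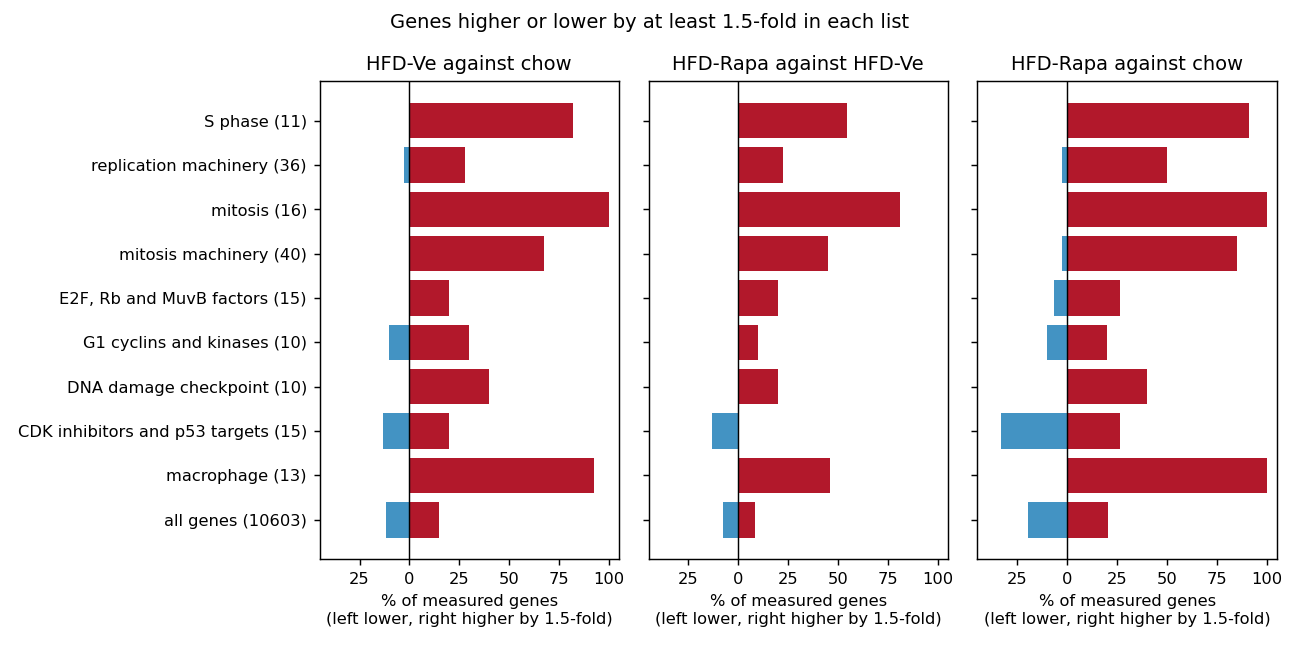
Percent of measured genes in each list that were higher (red, to the right) or lower (blue, to the left) by at least 1.5-fold in the 3 comparisons, with the number measured in parentheses and all 10603 genes at the bottom. The S phase, mitosis and macrophage lists stand above the 15.1%, 8.55% and 20.5% of all genes that were higher.

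Macrophage markers ran in the same order as the cycle genes at both steps. The RNA comes from whole tissue, so more cells of a dividing type and more of these transcripts per cell cannot be told apart. The signals of the 11 S phase genes summed to 2141 on chow, 4214 on HFD-Ve and 6721 on HFD-Rapa, and those of the 16 measured mitosis genes to 1242, 4199 and 7300. Of 14 macrophage markers 13 were measured, and all were detected on every array. Their signals summed to 17786, 51703 and 73269 on the same arrays, with a median difference of 1.45 between HFD-Ve and chow and 0.57 between the obese arrays. All 13 ran in the order of the cycle genes, against 28.5% of all genes. Among them was Tyrobp, a signaling adaptor of myeloid cells (8.88, 11.51 and 12.46). Of 10 T cell markers 5 were measured, summing to 410, 435 and 825, and the defining genes Cd4 and Cd8a were not detected on any array. On HFD-Ve 0 of 5 were higher than on chow, against 15.1% of all genes. On HFD-Rapa 4 of 5 were higher than on HFD-Ve, against 8.55% of all genes. Of 8 B cell markers 3 were measured (sums 223, 356 and 701), of which 2 were higher at each step, against the same shares of all genes. Cd22, counted for HFD-Ve against chow, was not detected on chow and was at least 1.34-fold higher. At that lower bound the first count was 1. Of 9 neutrophil markers 7 were measured (sums 414, 965 and 1461). Of these, 1 was higher on HFD-Ve than on chow, S100a8, against 15.1% of all genes. Another 5 were higher on HFD-Rapa than on HFD-Ve, against 8.55% of all genes. Ltf, Camp, Ngp and Retnlg, all among the 5, were detected on HFD-Rapa alone. With undetected genes at their lower bounds the second count was 3. The part of these cells in the signals of the cycle genes was not tested.

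Signals of 9 measured of 10 adipocyte markers summed to 64755, 72898 and 58722. On HFD-Ve 1 of them, Lep, was higher and 3 were lower than on chow, against 15.1% and 11.7% of all genes. Their median difference was -0.20. On HFD-Rapa 5 were lower and none higher than on HFD-Ve, against 7.56% and 8.55% of all genes. Signals of 7 measured of 8 endothelial markers summed to 5108, 4805 and 2581. On HFD-Ve 0 of the 7 were higher or lower than on chow, against 15.1% and 11.7% of all genes. On HFD-Rapa all 7 were lower than on HFD-Ve, against 7.56% of all genes. Neither the adipocyte nor the endothelial sums ran in the order of the cycle genes. Signals of 8 measured of 9 fibroblast and preadipocyte markers summed to 26413, 34386 and 38830, the order of the cycle genes. One by one, 4 of the 8 followed this order, against 28.5% of all genes. On HFD-Ve 4 of the 8 were higher and none lower than on chow, against 15.1% and 11.7% of all genes. None of the 8 was 1.5-fold higher or lower on HFD-Rapa than on HFD-Ve, against 8.55% and 7.56% of all genes. The part of these cells was not tested. Erythroid markers, 3 measured of 5, summed to 1400, 4165 and 1072. Of these, Alas2 and Slc4a1 were highest on HFD-Ve, whereas Epor was highest on HFD-Rapa. VWAT lies beside the gonads, whose germ cells divide. None of the 8 testis germ cell markers or the 4 ovary granulosa markers with a probe was detected on any array.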

How the data were processed

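RNA of VWAT was hybridized to Illumina Mouse WG-6 V2 bead arrays. The authors deposited, for 45281 probes, the raw signal intensity exported from GenomeStudio and its detection p-value. The authors also deposited processed intensity values (linear scale, medians 74.1 to 74.3) processed in GeneSpring GX per the methods, with the normalization not stated. With limma 3.58.1 (R 4.3.3), background was estimated through the detection p-values and removed (offset 16), and signals were quantile normalized and log2 transformed. A probe was kept if its detection p was under 0.01 on any array (18954 probes), and each of 10603 genes took its brightest kept probe. The annotation named 1 gene for 34885 probes and several for 18, left unnamed as were 10378 others. Levels were not compared between genes. From each other list up to 4 genes were named, those that differed most between the obese arrays among genes detected on both. Pold2, Incenp and Cdkn1a were named after their values were seen. The 39 genes and all lists were chosen with earlier results of these data known. The number of arrays limits the precision. Alternatives varied the background correction, scaling, detection limit, probe choice, threshold and treatment of undetected genes, used the authors' processed values, or left out Mki67, Top2a and Ccna2. Python 3.11.15, numpy 2.4.6, pandas 2.3.3 and matplotlib 3.10.9 were used, and the steps were tested on simulated data.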

Additional observations from a re-analysis of the deposited data

How the results depend on the processing

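No paired analysis was possible because each group has 1 array. Under the alternatives no difference of the 27 genes changed direction except that of Mcm7 between HFD-Ve and chow. Differences were smaller in the authors' processed values and without background correction. In these settings the S phase median of HFD-Ve against chow was 0.61 and 0.61, and that of HFD-Rapa against chow was 1.12 and 1.12. The mitosis median was 1.03 and 1.05 in the first comparison, and 1.62 and 1.64 in the second. With an offset of 50 the mitosis median was 1.31 and 1.97. With no detection filter it was 1.35 and 1.98, and its excess over the S phase median was 0.30 and 0.36 and, for HFD-Rapa against HFD-Ve, turned from 0.10 to -0.09, because 10 dark genes enter. For HFD-Rapa against HFD-Ve, 7 mitosis genes were higher in the authors' processed values and 7 without background correction, in place of 13. At a 2-fold threshold 0 of 11 S phase genes and 1 of 16 mitosis genes were higher. The other 234 counts and medians of both groups stayed within 1.5 times the main count or within the SD between probes of a gene (0.32 between HFD-Ve and chow, 0.21 between the obese arrays and 0.38 between HFD-Rapa and chow). In the authors' processed values, 970 of all genes were higher and 681 lower on HFD-Ve than on chow (1598 and 1241 here), and 453 and 436 on HFD-Rapa than on HFD-Ve (907 and 802 here). Genes near the detection limit on chow, among them Tk1 and Top2a, have folds that depend on the background.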
